A study of Mus musculus with 16 samples.

Results

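The replication-dependent histone genes encode the H1 linker histones and the H2A, H2B, H3 and H4 core histones that package newly copied DNA. Members were taken by name from the array's probe sets (groups of probes summarised to 1 value): a probe set had to be annotated to a single gene whose symbol starts with H2ac, H2bc, H3c or H4c and a number, or is H1f1 to H1f5. Of the 20259 genes with such a probe set, 18 were histone genes: 4 of class H1, 5 of H2A, 7 of H2B, 0 of H3 and 2 of H4. H2ac6 and H2bc18 were singled out for their difference between genotypes, H2ac6 at 2 weeks and H2bc18 at 4 months, so their values in the comparisons that share those arrays are given as descriptions without a test.

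RNA was measured in mouse retinas with a null allele of Gtf2ird1, labelled BEN-NULL, and in WT (wild-type) retinas of the same ages, with 4 arrays for each genotype at each age and 16 in all. The ages were 2 weeks and 4 months per the titles and the extraction protocol, while the growth protocol gives the older age as 2 months. Each array carried biotin-labelled total RNA of an individually extracted retina, hybridised to an Affymetrix exon array for the mouse genome, and the replicates are called biological by the labels. Neither strain nor sex is stated in the labels, and the null allele is not limited there to any cell type. GTF2IRD1 is a DNA-binding transcription factor of the TFII-I family. Values are log2 signals as deposited, so a difference of 1 is a 2-fold change. A gene was called where limma's moderated test over all 20259 genes gave a Benjamini-Hochberg adjusted p under 0.05.

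Replication-dependent histone genes are transcribed mainly in S phase, when the coactivator NPAT switches the clustered genes on. Their messages end in a conserved stem-loop, bound by SLBP, in place of a poly(A) tail, and are degraded when replication stops. In the mouse retina cell division is largely over by the younger of the ages studied, and in non-dividing cells some of these genes are also transcribed as polyadenylated RNA. The genes lie in clusters and their coding sequences are nearly the same within a class, so probes for a member can also bind RNA of its copies.

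Most of the family could not be read gene by gene. The RefSeq table lists 63 genes of these names, 59 of which appear in the annotation of at least 1 probe set, but 41 of the 59 appear only in probe sets that name several genes. These 41 include all 12 H3 genes. The 43 probe sets shared by several genes are described after the single genes. By RefSeq, H2bc18, H2bc21 and H4c14 lie on chromosome 3 and the other members on chromosome 13. The 3 probe sets annotated to H2bc8 sit in the table directly after those of H4c14, a chromosome 3 gene, so the gene behind the name H2bc8 is uncertain.

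The promoters of the members are shown because they carry the elements by which the classes are recognised. Of the 18 members, 16 have an entry in the RefSeq promoter table (GRCm38.p6), which covers 250 bases before and 50 bases after the annotated start. Both strands were searched for 4 motifs: the TATA box TATAAA, the CCAAT box CCAAT, the octamer ATTTGCAT and the H1 box AAACACA. The sequences below are those of H1f2, the H1 gene that was called between genotypes, and of H2ac6 and H2bc18. Capitals mark every match of a motif on either strand, and each sequence is written 5′ to 3′ on the strand of its gene.
H1f2, chr13:23738557-23738856, plus strand: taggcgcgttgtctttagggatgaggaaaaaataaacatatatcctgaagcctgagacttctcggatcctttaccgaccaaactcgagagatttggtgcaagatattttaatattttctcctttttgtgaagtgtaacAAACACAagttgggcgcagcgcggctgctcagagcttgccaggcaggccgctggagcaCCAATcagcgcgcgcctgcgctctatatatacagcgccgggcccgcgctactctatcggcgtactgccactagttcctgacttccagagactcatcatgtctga
H2ac6, chr13:23683910-23684209, minus strand: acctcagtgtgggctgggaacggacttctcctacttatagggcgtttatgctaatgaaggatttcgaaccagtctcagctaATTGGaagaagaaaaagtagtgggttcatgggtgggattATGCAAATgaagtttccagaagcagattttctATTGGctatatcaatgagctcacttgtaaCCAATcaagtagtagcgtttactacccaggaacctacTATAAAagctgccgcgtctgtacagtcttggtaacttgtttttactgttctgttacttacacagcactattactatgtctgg
H2bc18, chr3:96269450-96269749, plus strand: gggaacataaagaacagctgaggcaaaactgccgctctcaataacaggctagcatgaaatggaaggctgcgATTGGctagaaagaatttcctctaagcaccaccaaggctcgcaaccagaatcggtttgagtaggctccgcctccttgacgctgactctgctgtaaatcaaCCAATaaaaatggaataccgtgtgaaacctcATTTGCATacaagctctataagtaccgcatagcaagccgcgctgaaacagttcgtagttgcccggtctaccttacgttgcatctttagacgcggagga
The H1f2 window holds the H1 box and a CCAAT box. The H2ac6 window holds the octamer, 3 CCAAT boxes and a TATA box, and the H2bc18 window holds the octamer and CCAAT boxes. Over the 16 promoters, CCAAT was found in 15, all but H4c12, against 37.4% of the 32851 promoters in the table. TATAAA was found in 12, against 13.6%, counted at any place in the window. In H2ac12 and H2ac15 it lay after the annotated start, at 15 and 21, and in H2ac8 at -142 on the other strand. The octamer was found in 8, 4 of H2A and 4 of H2B and none of H1 or H4, against 1.74%. The H1 box was found in 6, among them 3 of the 4 H1 promoters, against 7.18%. Neighbouring H2A and H2B genes are often transcribed away from each other out of a shared stretch, so a match can be counted for both. A match is a string of letters and does not show binding.

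In the whole series, array medians ran from 5.31 to 5.55 on the log2 scale and no 2 arrays were identical. WT replicate 1 of 2 weeks had the highest median and the lowest mean correlation with its own group, 0.974, against 0.983 to 0.991 for the other arrays. Of the 4 probe sets annotated to Gtf2ird1, 3 were between 4.53 and 5.29 in every null array and between 8.22 and 9.55 in every WT array, and the fourth was between 10.2 and 10.6 in all. The measured rod markers were high in all arrays, for example Pde6a (a rod phosphodiesterase subunit) at 13.1 to 13.4 and Cnga1 (the rod cyclic nucleotide-gated channel) at 13.1 to 13.7. The cone markers differed in level, with Opn1sw at 12.7 to 13.1 but Pde6h at 5.72 to 7.83 and Cnga3 at 4.99 to 5.99. Xist exceeded the Y-linked genes in 2 WT arrays of 2 weeks, in 1 WT array of 4 months and in 0 null arrays, so sex and genotype were partly aligned.

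**Figure D1:**
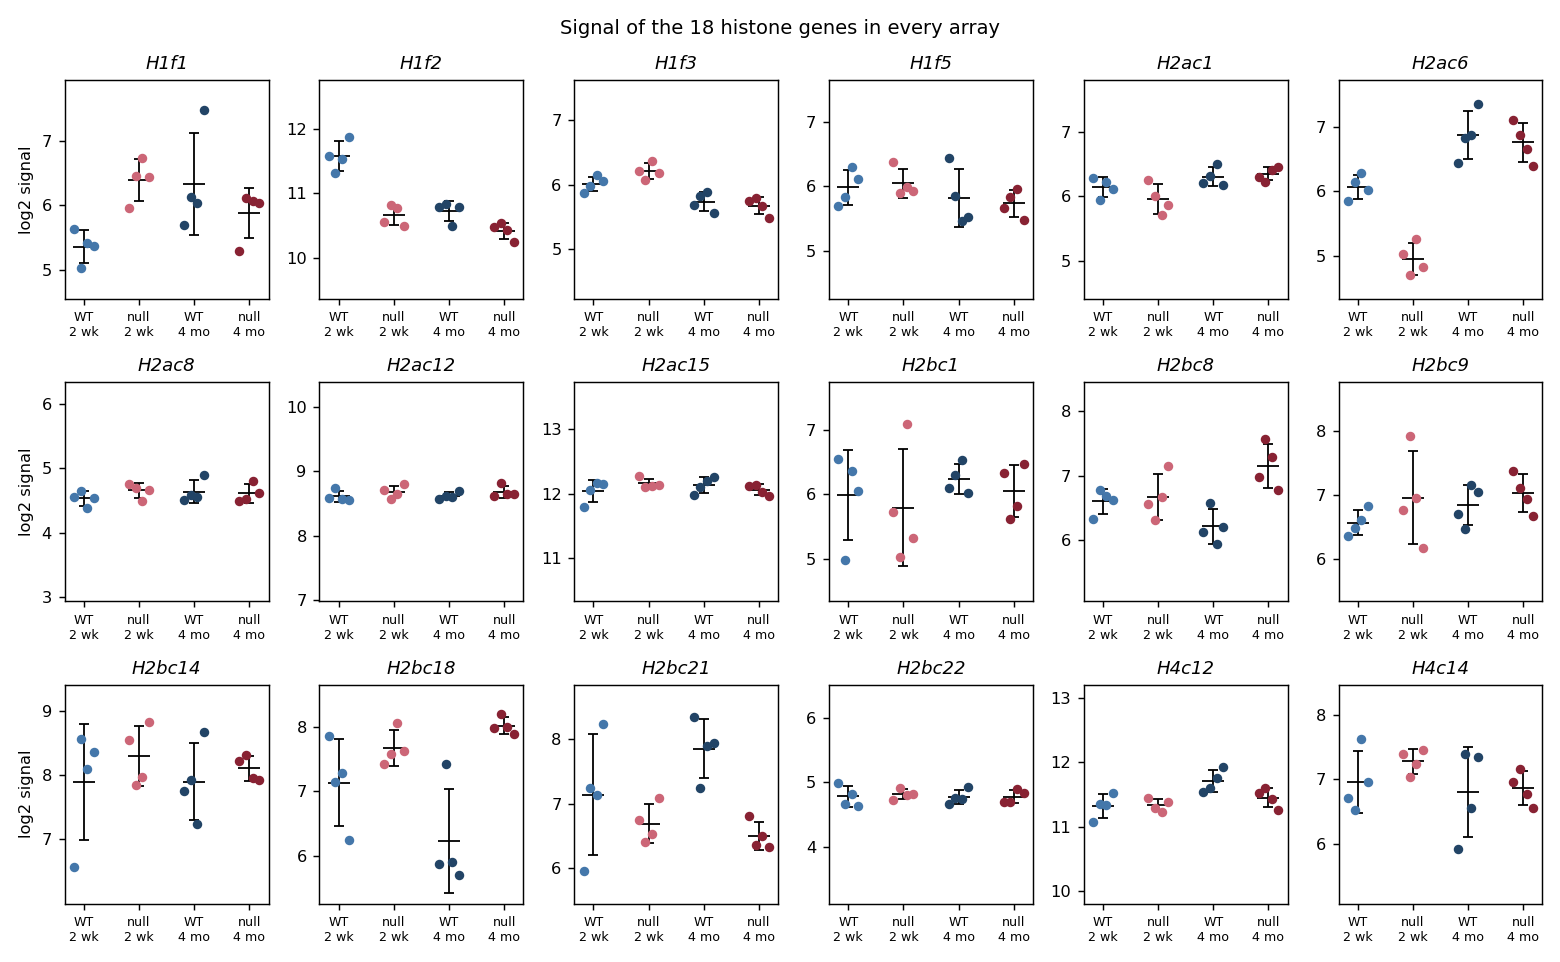
Log2 signal of the 18 single-gene histone members in each of the 16 arrays, by genotype and age. Points are arrays, the horizontal mark is the group mean and the bar the SD of 4 arrays; every panel spans the same log2 range. H2ac6 was lowest in the null arrays of 2 weeks (4.70 to 5.26), H1f2 highest in the WT arrays of 2 weeks (11.31 to 11.88), and H2bc18 lay between 7.89 and 8.21 in the null arrays of 4 months.

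Among the linker histones, H1f2 was lower in null than in WT retina at 2 weeks. H1f2 encodes H1c, a linker histone abundant in differentiated cells and known in mouse rods for its part in heterochromatin condensation. Its log2 signal at 2 weeks was 11.58, 11.31, 11.54 and 11.88 in WT replicates 1 to 4, and 10.56, 10.82, 10.77 and 10.50 in the null replicates. In the older retinas it was 10.78, 10.83, 10.49 and 10.80 in WT, and 10.48, 10.54, 10.42 and 10.25 in null. The WT arrays of 2 weeks thus stood above all 12 others, with no overlap, while the groups of 4 months overlapped.

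The group mean of H1f2 at 2 weeks was 11.58 ± 0.23 (SD, n = 4) in WT and 10.66 ± 0.16 (SD, n = 4) in null. The null mean was lower by 1.89-fold, a log2 difference of -0.92 (SE 0.12), and limma gave an adjusted p of 0.00115. The exact permutation test over the 8 arrays gave a two-sided p of 0.0286, the smallest that 4 against 4 arrays allow. At 4 months the difference was -0.30 with an adjusted p of 0.704 by limma. The change in the genotype difference between the ages was 0.61 with a limma adjusted p of 0.471, so the ages were not shown to differ. The 2-week call held in all 27 alternatives that were run, with an adjusted p of at most 0.0330. It was -0.81 with the sex covariate, -0.96 with the lens marker mean as a covariate and -0.91 without WT replicate 1 of 2 weeks.

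H1f2 also fell with age in WT retina, from 11.58 to 10.72 ± 0.16 (SD, n = 4). This was a 1.81-fold decrease with a limma adjusted p of 0.000486, and every WT array of 4 months was below every WT array of 2 weeks. In null retina, where the signal at 2 weeks was already at 10.66, the mean at 4 months was 10.42 ± 0.12 (SD, n = 4), a difference of -0.24 (limma adjusted p = 0.255). The genotype comparison at 2 weeks and the WT age comparison share the 4 WT arrays of 2 weeks, so these results are not independent of each other.

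H1f1 and H1f3, which encode the linker histones H1a and H1d, moved differently from H1f2. H1f1 at 2 weeks was 5.63, 5.02, 5.41 and 5.36 in WT and 5.95, 6.45, 6.73 and 6.43 in null. The values of 4 months were 5.68, 6.12, 6.04 and 7.48 in WT and 5.29, 6.11, 6.07 and 6.03 in null. Every null array exceeded every WT array at 2 weeks, but the difference of 1.04 (SE 0.30) had a limma adjusted p of 0.126. It was called with the sex covariate (1.44, limma adjusted p = 0.0268) and without WT replicate 4 of 4 months (1.04, limma adjusted p = 0.0192). The WT age difference of 0.98 also separated the groups and had a limma adjusted p of 0.0532, missing the threshold in 19 of 26 alternatives and falling under it in the others, as low as 0.00905 with the sex covariate. It was 0.59 without WT replicate 4 of 4 months. At 4 months the genotypes overlapped, with a difference of -0.46, which was -0.26 without null replicate 1 and -0.07 without WT replicate 4. H1f1 was named after its values were seen.

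H1f3 at 2 weeks was 5.87, 5.98, 6.15 and 6.06 in WT and 6.22, 6.08, 6.37 and 6.19 in null. Arrays of 4 months gave 5.68, 5.83, 5.88 and 5.56 in WT and 5.75, 5.79, 5.68 and 5.49 in null. The null arrays of 4 months lay below all null arrays of 2 weeks, while the WT ages overlapped slightly. H1f3 fell by 0.54 (SE 0.098) on the log2 scale from 2 weeks to 4 months in null retina, 1.45-fold, with a limma adjusted p of 0.00252, which held in all 26 alternatives. The WT difference was -0.27 (limma adjusted p = 0.0957), and without WT replicate 1 of 2 weeks it was -0.32 and called (limma adjusted p = 0.0487). H1f3 did not differ by the test between genotypes at either age, with differences of 0.20 and -0.06. H1f5, which encodes H1b, ran from 5.47 to 6.45 over the 16 arrays and was called in no comparison.

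The H2A genes encode nearly identical core histones, and H2ac6 was the H2A member whose groups lay farthest apart. At 2 weeks H2ac6 was 5.85, 6.15, 6.28 and 6.02 in WT and 5.02, 4.70, 5.26 and 4.82 in null. In retinas of 4 months it was 6.44, 6.82, 6.87 and 7.36 in WT and 7.11, 6.87, 6.66 and 6.39 in null. The null arrays of 2 weeks were the 4 lowest of the 16, both groups of 4 months were above both groups of 2 weeks, and the genotypes overlapped at 4 months.

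As a description, the H2ac6 mean at 2 weeks was 6.07 ± 0.19 (SD, n = 4) in WT and 4.95 ± 0.24 (SD, n = 4) in null, 2.18-fold lower. Between the ages it was 1.74-fold higher at 4 months in WT and 3.49-fold higher in null. The null values at 2 weeks, 4.70 to 5.26, lay below every array median (the lowest was 5.31), towards the low end of the signal range. This limits the fold changes that rest on them. The 2-week difference of -1.12 ranged from -1.28 to -1.04 over 26 alternatives, and it was -1.06 with the sex covariate, -1.28 with the lens marker mean as a covariate and -1.20 without WT replicate 1. Probe sets that name H2ac6 among 9 H2A genes differed by -0.28 to 0.25 between genotypes at 2 weeks, and by -0.89 to 0.04 with age in null. The pattern of the single-gene probe set was thus not seen in them. The H2ac6 comparison at 4 months was not used to choose the gene. There the difference was -0.12 with a 95% confidence interval from -0.51 to 0.27 and a limma adjusted p of 1.

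The other H2A members varied little. H2ac15 ran from 11.79 to 12.26 over all 16 arrays and its group means from 12.04 to 12.16, with no comparison called. At 2 weeks H2ac15 was 11.79, 12.05, 12.17 and 12.15 in WT and 12.26, 12.10, 12.12 and 12.14 in null. At 4 months it was 11.97, 12.10, 12.19 and 12.25 in WT and 12.12, 12.14, 12.02 and 11.95 in null. H2ac12 ran from 8.55 to 8.81 and H2ac8 from 4.38 to 4.90, near the low end of the signal range. H2ac1, which encodes the testis-enriched H2A partner of H2bc1, was 6.29, 5.94, 6.22 and 6.11 in WT and 6.25, 6.01, 5.71 and 5.87 in null at 2 weeks. At 4 months it was 6.21, 6.32, 6.51 and 6.18 in WT and 6.30, 6.23, 6.42 and 6.46 in null. The null ages overlapped by the array of 6.25 at 2 weeks.

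H2ac1 rose by 0.39 (SE 0.12) on the log2 scale with age in null retina, with a limma adjusted p of 0.0415 and an exact permutation p of 0.0571. The call was lost in 15 of 26 alternatives, in which the adjusted p ran up to 0.143. Leaving out any null array except replicate 1 of 2 weeks ended it, with differences from 0.31 to 0.43, as did leaving out WT replicate 4 of 2 weeks or WT replicate 2 of 4 months, each at 0.39. In WT the difference was 0.16 (limma adjusted p = 0.447).

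Several H2B genes varied widely between arrays of the same group, H2bc18 among them. H2bc18 at 2 weeks was 7.87, 7.15, 7.29 and 6.24 in WT and 7.43, 7.58, 8.07 and 7.63 in null. In the older retinas it was 5.88, 7.42, 5.91 and 5.71 in WT and 7.99, 8.21, 8.0 and 7.89 in null. The null arrays of 4 months lay close together and above all WT arrays of that age, of which replicate 2 stood far above the others.

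As a description, the H2bc18 mean at 4 months was 6.23 ± 0.80 (SD, n = 4) in WT and 8.02 ± 0.13 (SD, n = 4) in null, 3.46-fold higher. The difference of 1.79 ranged from 1.56 to 2.19 over 27 alternatives, the highest without WT replicate 2, and was 1.69 with the sex covariate. Between the ages the mean differed by -0.91 in WT and by 0.34 in null. The WT value was -0.49 with array weights and -1.30 without WT replicate 2 of 4 months. The genotype comparison at 2 weeks was not used to choose the gene. There the difference was 0.54 (SE 0.34, 95% confidence interval from -0.17 to 1.26), with a limma adjusted p of 0.537, and 0.24 without WT replicate 4 of 2 weeks.

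H2bc21, which encodes H2BE, a variant known in mouse olfactory neurons for expression outside S phase, was laid out in the opposite way, and was named after its values were seen. At 2 weeks it was 5.95, 7.23, 7.13 and 8.24 in WT and 6.75, 6.40, 6.53 and 7.08 in null. The values of 4 months were 8.34, 7.25, 7.89 and 7.94 in WT and 6.80, 6.36, 6.49 and 6.33 in null. The WT array highest in H2bc18 at each age, replicate 1 at 2 weeks and replicate 2 at 4 months, was the lowest in H2bc21, and WT replicate 4 of 2 weeks was the lowest in H2bc18 and the highest in H2bc21. The difference at 4 months was -1.36 (SE 0.34), 2.56-fold lower in null with no overlap, and missed the threshold with a limma adjusted p of 0.138. It was called in 4 of 27 alternatives, with an adjusted p as low as 0.0156: with only the arrays compared, with array weights and without WT replicate 1 or 4 of 2 weeks. At 2 weeks the difference was -0.45 (limma adjusted p = 0.622), -0.08 without WT replicate 4 and -0.85 without WT replicate 1. The H2bc21 promoter is not in the table used, and whether the probes of these paralogous genes respond to each other's RNA was not tested.

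**Figure D2:**
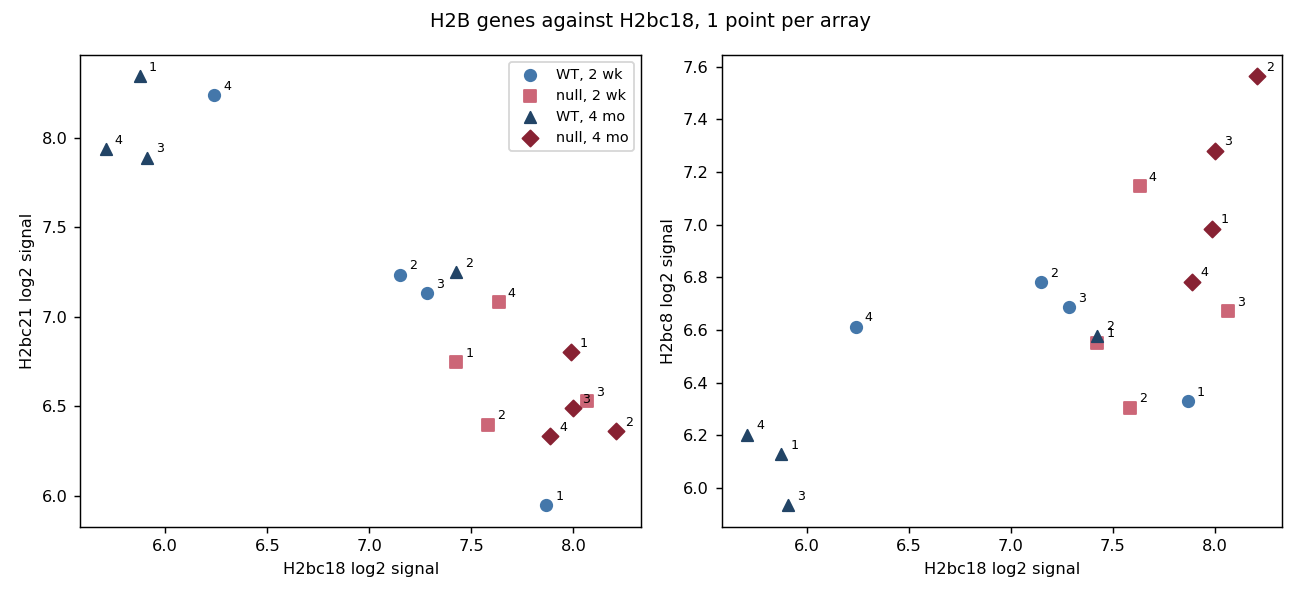
Log2 signal of H2bc21 (left) and H2bc8 (right) against H2bc18, with 1 point per array labelled by its replicate number and marked by group. The WT arrays of 4 months, except replicate 2 (7.42 for H2bc18), lie at low H2bc18 and high H2bc21, and the null arrays of 4 months lie at high H2bc18, low H2bc21 and high H2bc8. All points share probe chemistry and arrays, and no correlation was computed.

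The probe set annotated to H2bc8 was 6.33, 6.78, 6.69 and 6.61 in WT and 6.55, 6.30, 6.67 and 7.15 in null at 2 weeks. Arrays of 4 months gave 6.13, 6.58, 5.93 and 6.20 in WT and 6.98, 7.56, 7.28 and 6.78 in null. The genotypes did not overlap at 4 months, and the WT array nearest to the null arrays was replicate 2, as for H2bc18.

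At 4 months H2bc8 was 1.92-fold higher in null, a difference of 0.94 (SE 0.19) with a limma adjusted p of 0.0379 and an exact permutation p of 0.0286. The call was lost in 17 of 27 alternatives, in which the difference ranged from 0.44 to 0.999 and the adjusted p reached 0.188. Leaving out WT replicate 1, 3 or 4 of 4 months ended the call, with differences of 0.91, 0.85 and 0.94. So did leaving out null replicate 1, 2 or 3 of 4 months, with 0.999, 0.81 and 0.90, and so did WT replicate 3 or 4 or null replicate 1 or 3 of 2 weeks, each with 0.94. The 2 other probe sets of that name differed by 0.48 and -0.12 at 4 months. Probe sets that name H2bc8 together with other histone genes differed by -0.49 to 0.07 at that age. The median of the 10 shared H2B probe sets was -0.27, with 8 lower in null, and limma called 0 of them, against 0.199% of all probe sets. The rise was thus not seen across the H2B probe sets. The genotype difference at 2 weeks was 0.07. From 2 weeks to 4 months the differences were -0.39 in WT and 0.48 in null (limma adjusted p = 0.231 and 0.130), and without null replicate 4 of 2 weeks the null one was 0.64 and called (limma adjusted p = 0.0402).

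The remaining H2B members were called in no comparison. H2bc14 was 6.58, 8.56, 8.09 and 8.36 in WT and 8.54, 7.85, 7.97 and 8.83 in null at 2 weeks. In retinas of 4 months it was 7.76, 7.92, 7.24 and 8.68 in WT and 8.21, 8.32, 7.95 and 7.93 in null. All groups overlapped, and the 2-week difference of 0.40 became -0.04 without WT replicate 1. H2bc9 ran from 6.18 to 7.92, and its second probe set differed in sign between genotypes at 2 weeks (-0.28 against 0.39). H2bc1, which encodes the testis-enriched H2B, ran from 4.99 to 7.09 with overlapping groups. H2bc22 ran from 4.63 to 4.99.

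Of the H4 genes, which encode the most conserved core histone, H4c12 was higher at 4 months than at 2 weeks in WT retina. H4c12 at 2 weeks was 11.08, 11.35, 11.35 and 11.53 in WT and 11.44, 11.30, 11.23 and 11.39 in null. At 4 months it was 11.54, 11.60, 11.76 and 11.94 in WT and 11.52, 11.60, 11.43 and 11.25 in null. The WT ages did not overlap, though the highest array of 2 weeks lay just under the lowest of 4 months, and the null ages overlapped.

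H4c12 rose 1.31-fold in WT, a difference of 0.38 (SE 0.11) with a limma adjusted p of 0.0386 and an exact permutation p of 0.0286. The call was lost in 15 of 27 alternatives, with an adjusted p of up to 0.121. Leaving out WT replicate 1, 2 or 3 of 2 weeks (0.30, 0.39 and 0.39), WT replicate 2, 3 or 4 of 4 months (0.42, 0.37 and 0.31) or null replicate 1 or 3 of 4 months (0.38 each) ended it. In null the difference was 0.11 (limma adjusted p = 0.645), and between genotypes at 4 months it was -0.26 (limma adjusted p = 0.790). The second H4c12 probe set differed by 0.30 in WT and 0.33 in null. H4c14 ran from 5.92 to 7.62 and was called in no comparison.

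**Figure D3:**
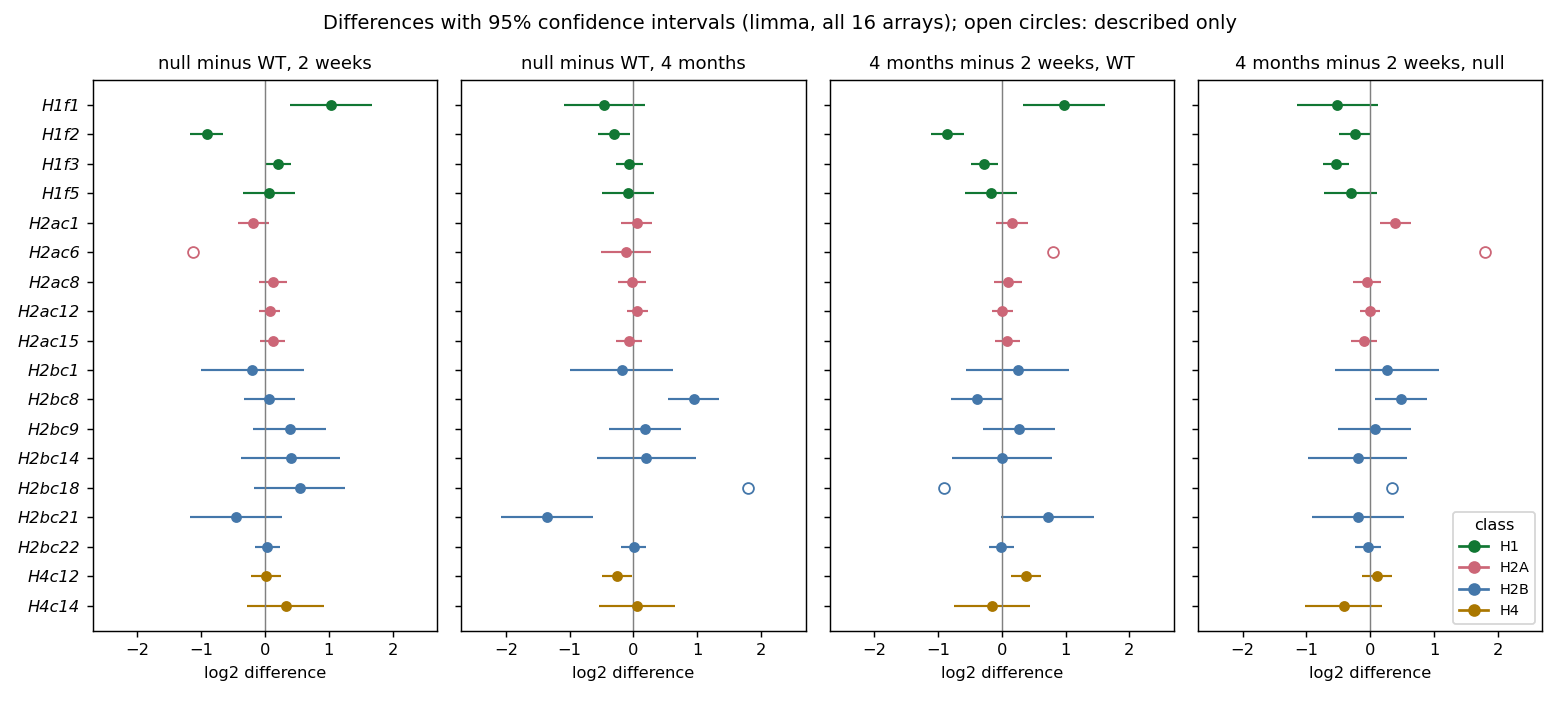
Log2 differences of the 18 members in the 4 comparisons, coloured by histone class, with 95% confidence intervals from limma over all 16 arrays. Open circles without an interval are H2ac6 and H2bc18 in the comparisons that share arrays with the one they were chosen from. H1f2 lies at -0.92 between genotypes at 2 weeks and at -0.85 between ages in WT, and most other intervals cross 0.

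Within each comparison few members were called. Between genotypes at 2 weeks 2 of 18 were called, both lower in null (H1f2 and H2ac6), where 1.06% of all genes were called in either direction. At 4 months 2 of 18 were called, both higher in null (H2bc18 and H2bc8), against 0.41% of all genes. As H2ac6 and H2bc18 were chosen from these comparisons, nothing is read from either count. For the change of the genotype difference with age limma called 0 members, against 0.00987% of all genes. Among the 16 members other than H2ac6 and H2bc18, 3 had an unadjusted p under 0.05 there (H1f1, H1f2 and H2bc8), against 5.92% of all genes.

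With age in WT 2 of these 16 members were called, H4c12 higher and H1f2 lower, against 9.19% of all genes. In null retina 2 of the 16 were called, H2ac1 higher and H1f3 lower, against 9.61%. H2ac6 was higher with age in both genotypes, but its age comparisons share the arrays it was chosen from, so it is left out of these counts. Over all 18 members, H2ac6 included, the WT count was 3 and became 5 without WT replicate 4 of 2 weeks, and the count at 4 months between genotypes was 0 without null replicate 1, 2 or 3 or WT replicate 1, 3 or 4 of that age, and 1 without null replicate 4 of 4 months, null replicate 1 or 3 of 2 weeks or WT replicate 3 of 2 weeks. Among the 16 members, groups did not overlap for 2 between genotypes at 2 weeks (H1f1 and H1f2) and for 2 at 4 months (H2bc8 and H2bc21), against 5.82% and 4.73% of all genes. Between the ages they did not overlap for 3 members in WT and 1 in null, against 12.7% and 17.5%.

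The median member differed by 0.07 between genotypes at 2 weeks and by -0.04 at 4 months, where the median of all genes was -0.02 and -0.00. With age the median member differed by 0.05 in WT and -0.04 in null, where the median of all genes was -0.04 and -0.02. The median member thus lay within 0.1 log2 units of the median of all genes in these 4 comparisons. By class, the per-array median of the 6 H2B genes other than H2bc18 was 6.41 to 6.84 in WT and 6.57 to 6.89 in null at 4 months, with overlap, and 6.35 to 6.72 against 6.35 to 6.81 at 2 weeks. H2bc18 was left out of it, and H2ac6 out of the H2A median, after the values were seen, because both were chosen for their differences. The per-array median of the 4 H1 genes was 5.79 to 6.22 in WT and 6.26 to 6.55 in null at 2 weeks, and 5.96 to 6.52 against 5.71 to 6.02 at 4 months. H1f2 was far above the other H1 genes in every array, so its value does not enter this median. Of the others, H1f1 differed by 1.04 at 2 weeks, H1f3 by 0.20 and H1f5 by 0.06, none of them called, so the median does not show a rise of the class. The per-array median of the 4 H2A genes other than H2ac6 was 7.33 to 7.43 in WT and 7.18 to 7.48 in null at 2 weeks, and 7.39 to 7.55 and 7.46 to 7.56 at 4 months. The mean of the 2 H4 genes was 8.73 to 9.64 over all arrays. In a whole retina, fewer cells of a type and less RNA per cell cannot be told apart.

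The probe sets shared by several histone genes gave the only view of class H3. They were tested over all 115830 probe sets of the table. All 11 H3 probe sets were lower in null at 4 months, by -0.38 to -0.04 with a median of -0.28, where the median of all probe sets was -0.004. Limma called 0 of them, against 0.199% of all probe sets. An unadjusted p under 0.05 was found for 5, a share not computed over all probe sets. Lower values there were not particular to H3. The shared H2B probe sets had a median of -0.27 (8 of 10 negative), H4 of -0.11 (10 of 13 negative) and H2A of -0.03 (4 of 7 negative). At 2 weeks the median of the H3 probe sets was -0.01 and 0 were called, against 0.73% of all probe sets. They name overlapping sets of the same genes and are not independent readings.

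With age in null retina the median H3 probe set differed by -0.37, and 2 of 11 were called, both lower, against 3.57% of all probe sets. One, annotated to 12 genes from H3c2 on, went from 11.94 to 11.39 (difference -0.55, SE 0.14, limma adjusted p = 0.0405). The other, annotated to 7 genes from H3c1 on, went from 10.87 to 10.38 (difference -0.49, SE 0.12, limma adjusted p = 0.0287). In WT the same probe sets differed by -0.06 and -0.09, the median H3 probe set by -0.03, and 0 were called, against 5.39% of all probe sets.

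**Figure D4:**
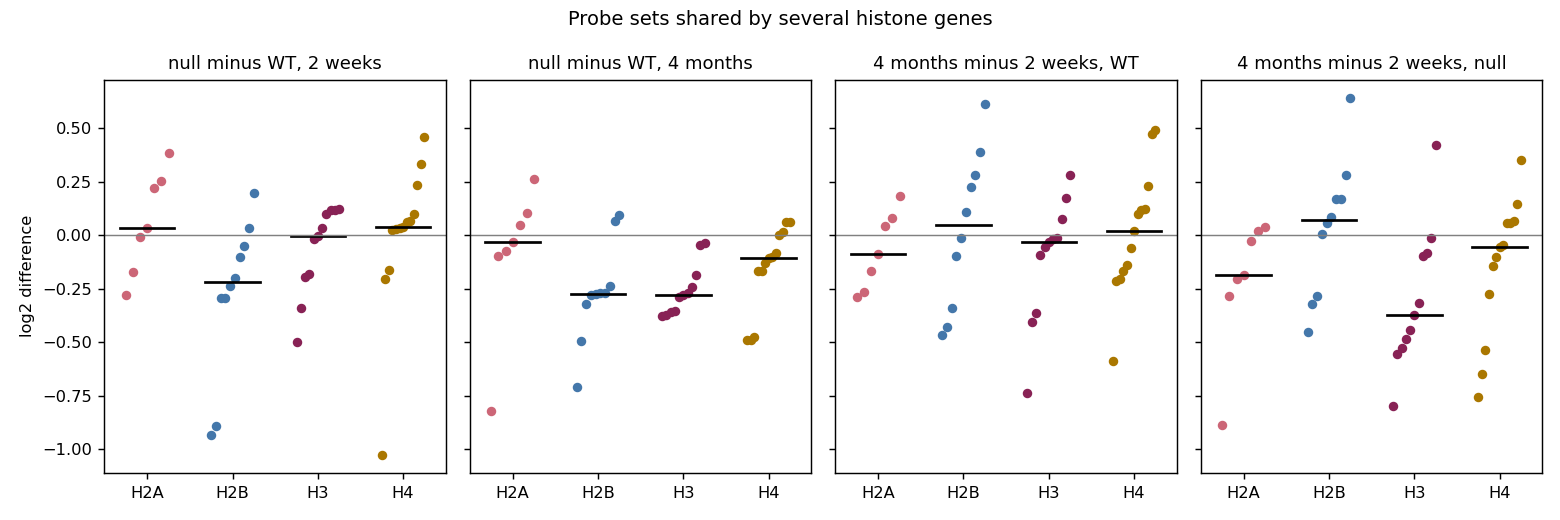
Log2 differences of the probe sets that name several histone genes, by class, in the 4 comparisons; each point is a probe set and the black line the class median. The 11 H3 probe sets lie between -0.38 and -0.04 for null minus WT at 4 months. The class medians there are -0.03 for H2A, -0.27 for H2B, -0.28 for H3 and -0.11 for H4. The 2 probe sets that mix classes are not drawn.

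Of the 13 shared H4 probe sets, that annotated from H4c9 on, with 13 genes, was lower in null at 2 weeks, 5.47 against 6.50 (difference -1.03, SE 0.22, limma adjusted p = 0.0410). Another, annotated from H4c8 on with the same 13 genes, fell with age in null from 10.35 to 9.82 (difference -0.53, limma adjusted p = 0.0158) and differed by 0.33 between genotypes at 2 weeks (limma adjusted p = 0.257). Probe sets for the same H4 genes thus differed in sign at 2 weeks. Of the 10 shared H2B probe sets, several were annotated to H2bc7, H2bc11, H2bc13 and H2bc15 alone, and they did not move alike. Of these, 1 fell with age in both genotypes, by 0.43 in WT and by 0.45 in null (limma adjusted p = 0.0145 and 0.0147). A second probe set of these 4 genes differed between genotypes at 2 weeks by -0.89, from 9.20 to 8.31 (limma adjusted p = 0.0696). Another differed by -0.30 between genotypes at 2 weeks, and by -0.34 in WT and -0.32 in null with age. The last went the other way, by 0.20 between genotypes at 2 weeks, and by 0.11 in WT and 0.01 in null with age. A probe set naming 7 genes, from H2bc6 on and with H1f4 among them, rose with age in null by 0.69 (limma adjusted p = 0.0326) and differed by 0.57 in WT (limma adjusted p = 0.0625). None of the 7 shared H2A probe sets was called in these comparisons, in which 0.73%, 0.199%, 5.39% and 3.57% of all probe sets were.

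Genes of the cell cycle and of histone handling were read in the same fit. Of 29 measured S phase genes, 0 were called by limma between genotypes at either age (3 and 2 had an unadjusted p under 0.05), and those with the lowest p at 2 weeks were Ccna2 (cyclin A, difference -0.48) and Mcm7 (a replicative helicase subunit, -0.54). At 4 months they were Ccna2 (-0.36) and Tyms (-0.25). With age 4 rose in WT, where 9.19% of all genes were called: Tyms (the thymidylate synthase gene, 0.65), Ccna2 (0.48), Pola1 (DNA polymerase alpha, 0.48) and Uhrf1 (a DNA methylation maintenance factor, 0.38). In null, where 9.61% of all genes were called, 3 rose: Ccna2 (0.60), Tyms (0.46) and Mcm10 (a replication initiation factor, 0.37). The list's median difference was -0.02 in WT and -0.04 in null, beside -0.04 and -0.02 for all genes.

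Of 17 mitosis genes 6 fell with age in WT and 0 rose, against 9.19% of all genes called, and the median was -0.22. Those with the lowest p were Plk1 (a mitotic kinase, -0.86), Kif11 (a spindle kinesin, -0.44), Ube2c (-0.72), Cenpe (-0.36) and Top2a (-0.32). In null 6 fell and 1 rose, against 9.61% of all genes, and the median was -0.14: Plk1 (-1.43), Top2a (-0.46), Cenpe (-0.41) and Mki67 (-0.71) fell and Bub1b, a spindle checkpoint kinase, rose by 1.07. Between genotypes Plk1 was higher in null at 2 weeks by 1.09 (limma adjusted p = 0.00871), and 0 of the 17 were called at 4 months, where 2 had an unadjusted p under 0.05, Plk1 (0.53) and Bub1b (0.51).

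Of 15 factors for the transcription and processing of histone messages, 3 were called with age in WT and 2 in null, where 9.19% and 9.61% of all genes were. Npat, the coactivator, fell with age in both genotypes, by 0.56 in WT and by 0.63 in null (limma adjusted p = 0.00299 and 0.00106). Lsm11, a subunit of the particle that cuts the end of histone transcripts, fell by 0.60 and by 0.64 (limma adjusted p = 0.00818 and 0.00483). Casp8ap2, which works at the same cut, rose by 0.82 in WT (limma adjusted p = 0.0200) and differed by 0.52 in null (limma adjusted p = 0.135). Limma called 0 of the 15 between genotypes at either age, nor had any an unadjusted p under 0.05. Those with the lowest p were Cstf2 (-0.20) and Casp8ap2 (0.30) at 2 weeks, and Npat (-0.18) and Cpsf3 (0.19) at 4 months.

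Of 15 histone chaperones, Nasp (-0.52) and Asf1a (-0.48), which carry histones to chromatin, fell with age in WT, and Hat1 (0.42), which acetylates new H4, rose, so that 3 of 15 were called against 9.19% of all genes. In null limma called 0 against 9.61%, with 6 at an unadjusted p under 0.05, the lowest for Hira (0.30) and Cabin1 (0.26). Between genotypes it called 0 at either age, with 3 and 0 at an unadjusted p under 0.05. The lowest p belonged to Nap1l1 (0.44) and Supt16 (-0.19) at 2 weeks and to Supt16 (-0.13) and Nasp (0.18) at 4 months. Of 10 variant histones only Macroh2a2 was called, lower with age in null by -0.57 (limma adjusted p = 0.0202). Its WT difference was -0.35, and H2aj differed by -0.23 in WT. H1f10, a replication-independent linker histone, differed by 0.99 between genotypes at 2 weeks (limma adjusted p = 0.188) and H2aj by -0.21, and at 4 months H1f10 differed by 0.32 and H2ax by 0.17. Limma called 0 of the 3 germ line histones in these comparisons, with 1 at an unadjusted p under 0.05 at 4 months and 1 with age in null.

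Several lists of tissue and cell type markers moved with genotype at 2 weeks, the comparison in which H1f2 and H2ac6 were lower. All 13 measured lens genes were higher in null on average, though limma called 0 and 8 had an unadjusted p under 0.05, and their per-array mean was 7.55 to 9.72 in WT and 9.07 to 11.95 in null. Of 12 pigment epithelium genes 3 were called, where 1.06% of all genes were, all higher in null, Tyr, Pmel and Krt18, and the per-array mean was 6.54 to 7.37 in WT and 7.29 to 7.84 in null. Of 10 progenitor genes 1 was called, Fabp7, higher by 1.75, and the per-array mean was 6.56 to 6.79 in WT and 6.93 to 7.12 in null. That list was split, with 6 of the 10 higher in null, differences from -0.14 to 1.75 and a median of 0.21. Of 11 endothelium and pericyte genes 1 was called, Flt1, higher by 0.69, with a mean of 6.89 to 7.03 in WT and 7.06 to 7.39 in null. The 2 measured blood genes had a mean of 5.83 to 8.58 in WT and 5.56 to 6.46 in null. With the lens mean as a covariate the H1f2 difference was -0.96, and no other of these lists was entered as a covariate. The part of these markers in the differences of H1f2 and H2ac6 was not tested.

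At 4 months limma called 0 genes of these 5 marker lists between genotypes, against 0.41% of all genes (with 1 at an unadjusted p under 0.05 among the endothelium genes and 0 in the others), and the lens mean was 7.50 to 9.89 in WT and 7.64 to 10.61 in null. Of 6 cone genes 2 were called lower in null at 2 weeks, Pde6h (-1.54) and Arr3 (-0.59), and 1 at 4 months, Pde6h (-1.13). The shares of all genes called were 1.06% and 0.41%. The cone list was split, as Opn1sw (0.30) and Cnga3 (0.24) were higher in null at 2 weeks without being called, and 3 of the 6 were higher at 4 months. Between genotypes limma called 0 of 8 rod, 0 of 8 Muller glia and 0 of 9 microglia genes at either age, with at most 2 of a list at an unadjusted p under 0.05. With age in WT 2 rod genes rose, and 1 cone, 2 Muller glia and 3 microglia genes fell, where 9.19% of all genes were called. In null 1 rod gene rose, 1 cone gene rose and 1 fell, and 1 Muller glia and 2 microglia genes fell, against 9.61% of all genes. Of 11 endothelium and pericyte genes 1 rose and 5 fell in WT, and 1 rose and 7 fell in null. Of 12 pigment epithelium genes 2 fell in WT and 7 in null. Progenitor genes that fell were 1 in WT and 2 in null, lens genes 0 and 1, and blood genes 1 and 0.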

How the data were processed

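Log2 signals per probe set were used as deposited by the authors. Per the submitters' processing notes, Partek, RMA and the build mm8 were used; their versions are not given in the sources used here. A base of 2 (log2) was read from the range of the values. The table holds 115830 probe sets: 25539 name 1 gene, 2300 several and 87991 none here. Genes were named from the platform annotation, with 24941 single-gene probe sets matched to RefSeq (GRCm38.p6), which also gave the promoters. All 16 arrays entered, and 0 value columns were left out. Arrays carry no read depth, and their number limits the precision.

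For each gene the probe set with the highest mean was kept. A model of 4 group means was fitted to all 16 arrays (lmFit and eBayes of limma 3.58.1, under R 4.3.3) with Benjamini-Hochberg adjustment over 20259 genes, and was tested on simulated data. Exact permutation tests were two-sided over 8 arrays. The histone members and the gene lists were chosen with earlier results of these data known. Values of every array are given for H2ac6, H2bc18, members called in any comparison and the member of each class with the highest mean, and also for H1f1 and H2bc21, which were chosen after their values were seen; other members are given by range and count. Of each pathway list, up to 5 called genes with the lowest p in each comparison were named, or the 2 with the lowest p where none was called.

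Alternatives, of which those on H1f1 and H2bc21 and those without H2ac6 and H2bc18 were chosen after seeing the data, were other normalizations, a signal filter, all probe sets, the mean over probe sets, other variance models, only the arrays compared, array weights, replicate number as a block, sex and lens covariates, another threshold, and leaving out each array. Replicate numbers are shared by the groups, but same-numbered arrays did not deviate together (correlations from -0.281 to 0.230), so no pairing was used.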

Additional observations from a re-analysis of the deposited data

Results flagged for a closer look

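Of 44 groups of 4 arrays checked among the 11 members given array by array, 3 held an array far from the other 3, and chance flags about 1 in 20 groups. H2bc18 in WT replicate 2 of 4 months was 7.42, with the nearest array of its group at 5.91. H1f2 in WT replicate 3 of 4 months was 10.49, with the nearest array at 10.78. H1f1, added to these members after its values were seen, was 5.29 in null replicate 1 of 4 months, with the nearest array at 6.03.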

How the results depend on the processing

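The counts here include H2ac6 and H2bc18, which were chosen from the genotype comparisons, so nothing is read from how steady the counts are. Among the 16 members other than H2ac6 and H2bc18, 1 was called between genotypes at each age. Over all members the count between genotypes at 2 weeks was 2, and 3 with the sex covariate. It was 1 with genes at or above the median signal, which leaves out H2ac6, and 2 to 3 when an array was left out. At 4 months the count of 2 became 1 with quantile normalization, with median centring, with all probe sets tested, with the mean over probe sets, with only the arrays compared and with the sex covariate, was 3 with array weights, and ran from 0 to 3 when an array was left out. With the replicate number as a block it was 1 at 4 months, 2 at 2 weeks, 0 for the change between ages, 3 with age in WT and 2 with age in null; these numbers do not pair the arrays. The change between ages stayed at 0 in all 28 alternatives. With age in WT the count of 3 became 2 with median centring, among genes at or above the median signal, with all probe sets, with the mean over probe sets and with only the arrays compared, 4 with array weights or the sex covariate and 5 at an adjusted p under 0.1, and ran from 2 to 5 when an array was left out. With age in null it became 0 among genes at or above the median signal, where fewer genes are tested and H2ac6, H1f3 and H2ac1 are left out, was 2 with all probe sets, with the trended and robust variance model, with only the arrays compared and with the sex or lens covariate, and ran from 2 to 3 when an array was left out. For the other changes the cause was not tested. With quantile normalization, median centring or the mean over probe sets, no class's median member difference, all members included, moved by more than the spread between arrays, and the median of all genes shifted by at most 0.0544. Signal near the low end, as for H2ac8, H2bc22 and H2ac6 in the null arrays of 2 weeks, limits what can be seen there.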
